A study of Mus musculus with 14 samples.

Results

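The transcripts described here come from 10 genes of the integrated stress response, measured in mouse splenocyte cultures and in sorted CD8+ T cells: Atf4, Atf3, Atf5, Ddit3, Chac1, Trib3, Sesn2, Asns, Nupr1 and Stc2. They were taken by symbol from 55291 symbols, and all 10 were present in both deposited tables. The 10 were chosen by name, with their values in the 2 comparisons below already known, so their directions are a description of these libraries and are not support for a response of the pathway.

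Messenger RNA was sequenced in 14 libraries from 2 experiments on cells labelled wild type. In the first, whole OT-1 splenocytes, in which the T cell receptor is a transgene that recognizes a peptide of ovalbumin, received 1 µg/mL of that peptide and 200 U/mL recombinant human interleukin-2. The vehicle libraries (n = 4) came from cultures with dimethyl sulfoxide and the ND-646 libraries (n = 4) from cultures with 100 nM ND-646, which blocks acetyl-CoA carboxylase, the enzyme that makes malonyl-CoA for fatty acid synthesis. Both kinds of culture ran for 3 days of activation and 4 more of expansion, with no sort of CD8+ cells named before RNA was taken. In the second, CD8+ T cells were enriched with a kit and sorted from the spleens (n = 3) and the subcutaneous MCA205 fibrosarcomas (n = 3) of C57BL/6 mice 14 days after the tumour cells were injected. Both groups of that experiment therefore come from tumour-bearing mice that received no compound. Enzymatic dissociation is named for the tumours only, the tumour samples are called pooled without saying what was pooled, and no age of the mice is stated. Nothing in the labels tells whether libraries of a group had separate mice or cultures as their source. A p-value here therefore reflects only how far these libraries spread, which may be technical.

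The integrated stress response begins with kinases that sense starvation for amino acids, unfolded protein in the endoplasmic reticulum, double-stranded RNA or loss of heme, and that phosphorylate the initiation factor eIF2. General translation then falls, while a few mRNAs with upstream open reading frames, Atf4 and Atf5 among them, are translated better, so the level of Atf4 mRNA is not a measure of ATF4 protein. ATF4 protein turns on genes for making and importing amino acids, and with CHOP, the product of Ddit3, genes of feedback and cell death; in T cells the pathway has been studied as a check on growth when amino acids run short.

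ATF4 binds, as a dimer with C/EBP factors, a composite element whose core is written TGATGNAA. This core was searched on both strands of the 250 bases before each gene start in RefSeq promoters (GRCm38.p6), where all 10 genes had an entry, with 11 starts in all. It was found in 4 of the 10 genes, Asns, Atf3, Chac1 and Nupr1, against 3.91% of 27025 genes and 3.45% of 32851 starts in the same table. The stretches that hold it are shown because these 4 genes also had the largest differences between tumour and spleen, which was noticed after the values were seen. The same 4 did not reach the filter on low counts in every spleen library and were tested because of their tumour level. Their large differences are therefore not support for a role of the core. The core is in capitals and reads on the gene's own strand in Asns (TGATGAAA) and on the opposite strand in the others (TTGCATCA). Each line gives 120 bases, 5′ to 3′ on the gene's strand.
Asns, chr6:7693210-7693329, minus strand: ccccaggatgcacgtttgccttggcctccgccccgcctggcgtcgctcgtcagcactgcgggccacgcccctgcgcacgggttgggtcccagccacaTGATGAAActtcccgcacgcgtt
Atf3, chr1:191183380-191183499, minus strand: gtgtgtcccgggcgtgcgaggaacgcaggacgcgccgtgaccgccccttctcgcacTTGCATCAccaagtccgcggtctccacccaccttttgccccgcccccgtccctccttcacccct
Chac1, chr2:119350993-119351112, plus strand: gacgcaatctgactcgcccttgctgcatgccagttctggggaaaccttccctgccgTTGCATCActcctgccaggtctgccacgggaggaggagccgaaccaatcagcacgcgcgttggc
Nupr1, chr7:126625517-126625636, minus strand: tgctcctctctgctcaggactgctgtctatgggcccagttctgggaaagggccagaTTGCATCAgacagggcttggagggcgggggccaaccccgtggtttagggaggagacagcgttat
The core began 23 bases before the start in Asns, 110 in Atf3, 110 in Nupr1 and 193 in Chac1. The ATF and CREB site TGACGTCA was in none of the 10 windows (1.77% of all genes), and CCACG, a part of the ER stress element none of whose matches overlapped the core, was in 7 of 10 (31.0% of all genes). A match describes letters in a window and was not tested as a binding site.

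Levels below are counts per 1000000 (CPM) of the scaled library, and a difference is called where edgeR's quasi-likelihood test gave an adjusted p (Benjamini-Hochberg, over all genes tested) of at most 0.05. Totals were 23.5 to 33.8 M counts in the cultures and 19.6 to 21.0 M in the sorted cells. Cd8a, the CD8 alpha chain, stood at 470 to 787 CPM in the cultures, 1530 to 1564 CPM in spleen and 776 to 1079 CPM in tumour libraries, while Cd4 was at 1.58 CPM or less in every library. Cd4 is 1 of 7 listed markers of CD4 and regulatory T cells. Their sum was 1299 to 1321 CPM in vehicle and 881 to 906 CPM in ND-646 libraries, mostly Il2ra. It was 39.5 to 44.0 CPM in spleen and 371 to 493 CPM in tumour, where Ctla4 was at a mean of 243 CPM. Of the 7, 1 was called higher and 5 lower with ND-646, and 4 higher and none lower in tumour. The tumour libraries also held RNA of other cells: the summed level of 26 fibroblast and fibrosarcoma markers was 12875 to 18512 CPM there, 71.7 to 86.8 CPM in spleen and 15.7 to 17.4 CPM in the cultures. Most of the spleen sum came from the marker Timp2 alone, at a mean of 65.9 CPM. In bulk RNA, fewer cells of a type and less RNA per cell cannot be told apart.

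**Figure D1:**
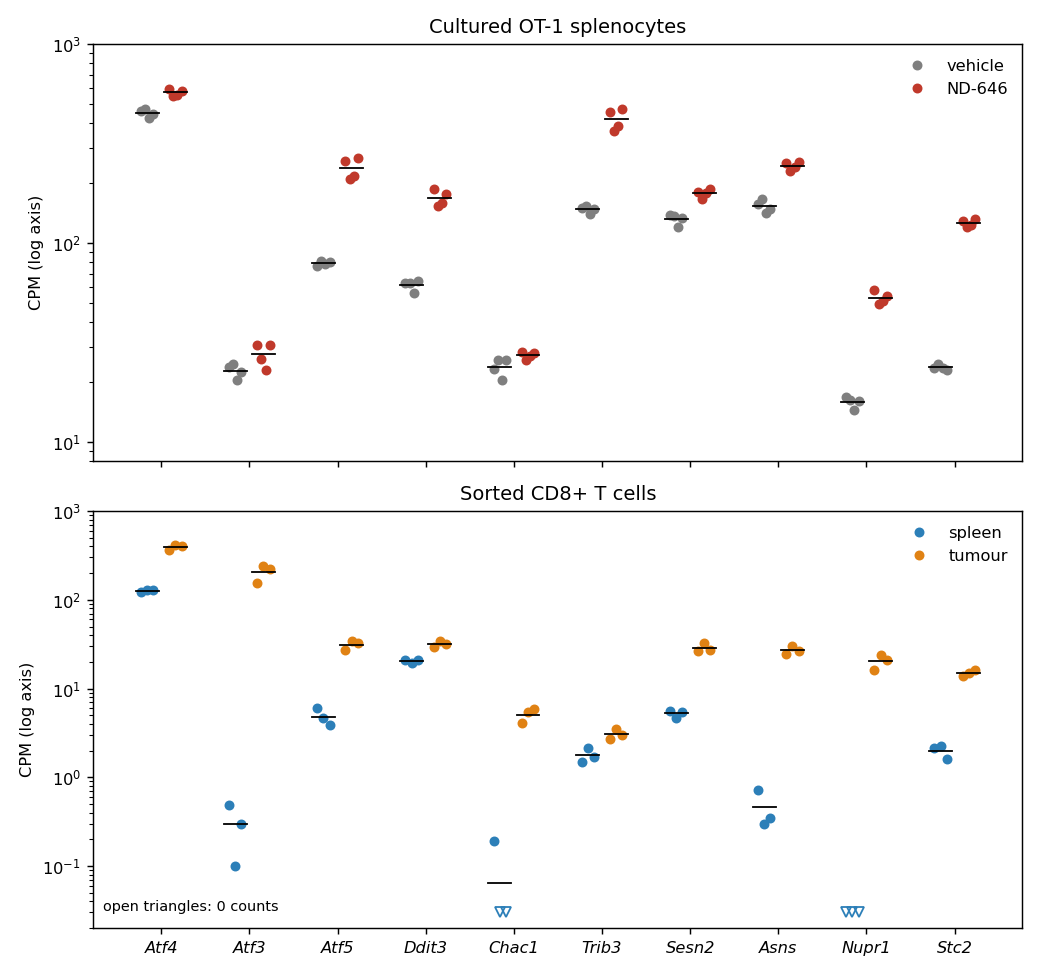
Level of each gene in every library (CPM, log axis; the 2 panels have different ranges), with cultures above and sorted cells below. Points are libraries, bars are group means, and open triangles mark libraries at 0 counts. Of these genes, the groups overlap only for Atf3 and Chac1, in the cultures. The share of all genes without overlap is not given, so nothing is read from the overlap.

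The first comparison asked how ND-646 altered the transcripts of activated splenocyte cultures. All 10 genes were higher with ND-646, from 1.14-fold for Chac1 to 5.31-fold for Stc2. Whether the groups overlapped is given for each gene as a description only. In this comparison 8028 of the 14251 genes tested were called in either direction. They are taken here by role, first the transcription factors, then feedback and secreted products, then metabolism.

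Among the transcription factors, Atf4 itself moved little. It stood at 459, 473, 424 and 444 CPM in vehicle libraries 1 to 4 and at 597, 547, 556 and 580.3 CPM in ND-646 libraries 1 to 4. The groups did not overlap, and the log2 difference was 0.34 ± 0.04 (SE), a 1.27-fold higher level. Atf5, a relative whose mRNA is under the same translational control, differed far more in size, with a log2 difference of 1.59 ± 0.08. It went from 76.3, 80.8, 78.4 and 80.1 CPM to 259, 208, 217 and 267 CPM, again without overlap. Ddit3, which encodes CHOP, a factor that promotes death of stressed cells, stood at 62.5, 62.8, 56.0 and 64.3 CPM in vehicle and at 186, 152, 158 and 175 CPM in ND-646 libraries. Its log2 difference was 1.45 ± 0.06, or 2.73-fold. Atf3, an immediate early repressor that ATF4 can induce, was at 23.8, 24.6, 20.4 and 22.3 CPM in vehicle and at 30.6, 26.0, 22.9 and 30.7 CPM with ND-646. Here the groups overlapped, since ND-646 library 3 lay inside the vehicle range, and the log2 difference was 0.27 ± 0.09.

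Among the genes of feedback and stress output, Stc2, a secreted glycoprotein, had the largest difference of the 10: 23.5, 24.5, 23.4 and 23.0 CPM in vehicle against 129, 119.6, 122 and 131 CPM in ND-646 libraries. Its log2 difference was 2.41 ± 0.04, and 0.344% of the 14251 genes tested had a higher one. Nupr1, a small chromatin-associated stress protein, was at 16.8, 16.2, 14.4 and 16.1 CPM in vehicle and at 57.5, 49.0, 50.7 and 53.8 CPM with ND-646, a log2 difference of 1.73 ± 0.06. Trib3, a pseudokinase induced by ATF4 and CHOP that dampens both, rose from 149, 153, 139 and 147 CPM to 456, 364, 387 and 471 CPM (log2 difference 1.51 ± 0.08). Stc2, Nupr1 and Trib3 did not overlap between the groups.

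The metabolic members differed by less. Asns, the enzyme that makes asparagine, stood at 157, 166, 141 and 148 CPM in vehicle and at 253, 229, 240.0 and 255 CPM in ND-646 libraries, a log2 difference of 0.68 ± 0.05. Sesn2, a sensor of leucine that restrains the growth kinase complex mTORC1, stood at 137, 136, 120.4 and 132 CPM against 181, 165, 178 and 187 CPM (0.43 ± 0.05). Both were clear of overlap. Chac1, an enzyme that breaks down glutathione, was at 23.2, 25.8, 20.4 and 25.7 CPM in vehicle and at 28.2, 25.7, 27.0 and 28.0 CPM with ND-646, where library 2 fell just below the highest vehicle library; its log2 difference was 0.19 ± 0.07.

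Of the 10 genes, 10 were called higher, where 29.8% of all 14251 genes tested were called higher; because the genes were chosen with these values known, nothing is read from that count. The median log2 difference was 1.06 over the 10 and 0.01 over all genes. The calls of Atf3 (adjusted p = 0.0223) and Chac1 (adjusted p = 0.0226) were not stable to single libraries. Atf3 lost its call without vehicle library 3 or 4 or ND-646 library 1 or 4 (adjusted p from 0.0584 to 0.0865), and Chac1 without vehicle library 1 or 3 or ND-646 library 1 or 4 (adjusted p from 0.0622 to 0.0936).

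**Figure D2:**
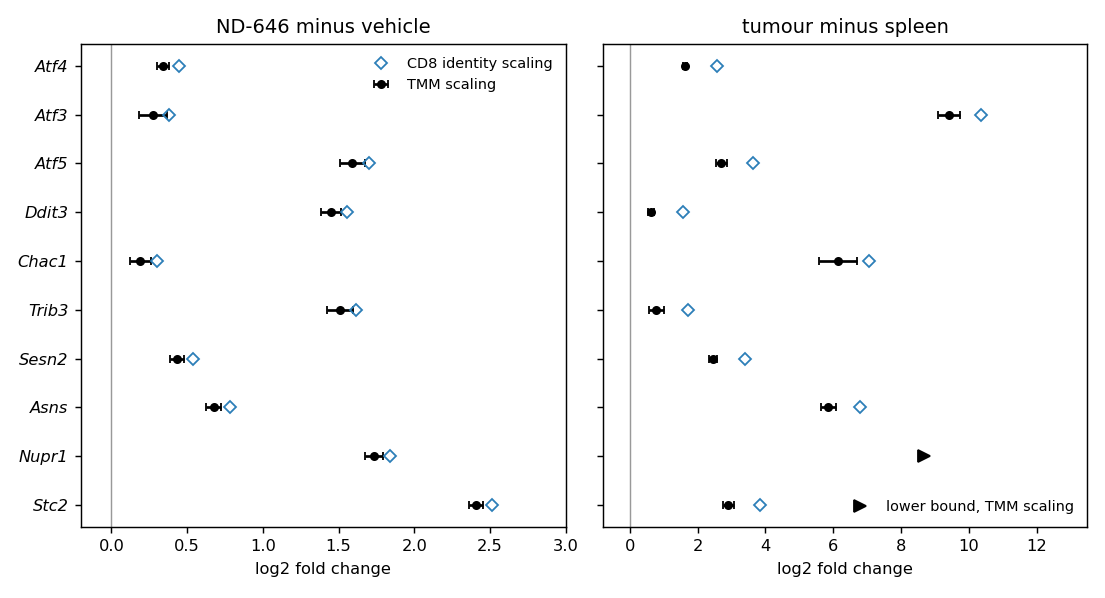
Log2 difference of each gene with ND-646 (left) and in tumour (right); circles with bars are the difference ± SE after TMM scaling, open diamonds the difference after scaling by 17 CD8 and T cell identity genes, and the triangle is the lower bound for Nupr1, at 0 counts in spleen. The order of the genes differs between the panels: Stc2 is highest at left, and Atf3 and Nupr1 are farthest right at right.

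Within the ND-646 group the 10 genes varied together. Libraries 1 and 4 were both above libraries 2 and 3 in 10 of 10 genes, a pattern seen in 25.6% of all genes tested. Over all genes, libraries 1 and 4 differed from each other by a chi-square per degree of freedom of 5.07 and libraries 2 and 3 by 3.65, against 7.37 to 11.3 across these pairs. The labels name no batch, and what sets the pairs apart was not tested. Without libraries 1 and 4 the log2 differences were lower, at 0.28 for Atf4, 1.33 for Trib3 and 2.34 for Stc2, and 8 of the 10 were called; Atf3 (0.09, adjusted p = 0.320) and Chac1 (0.13, adjusted p = 0.170) were not. Without libraries 2 and 3 all 10 were called, with Atf3 at 0.43. Over all genes, 7553 were called in either direction without libraries 1 and 4 and 8087 without libraries 2 and 3. With all libraries the number was 8028. Among vehicle libraries, library 3 was the lowest in 8 of 10 genes, all but Atf5 and Stc2, and in 27.5% of all genes.

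**Figure D3:**
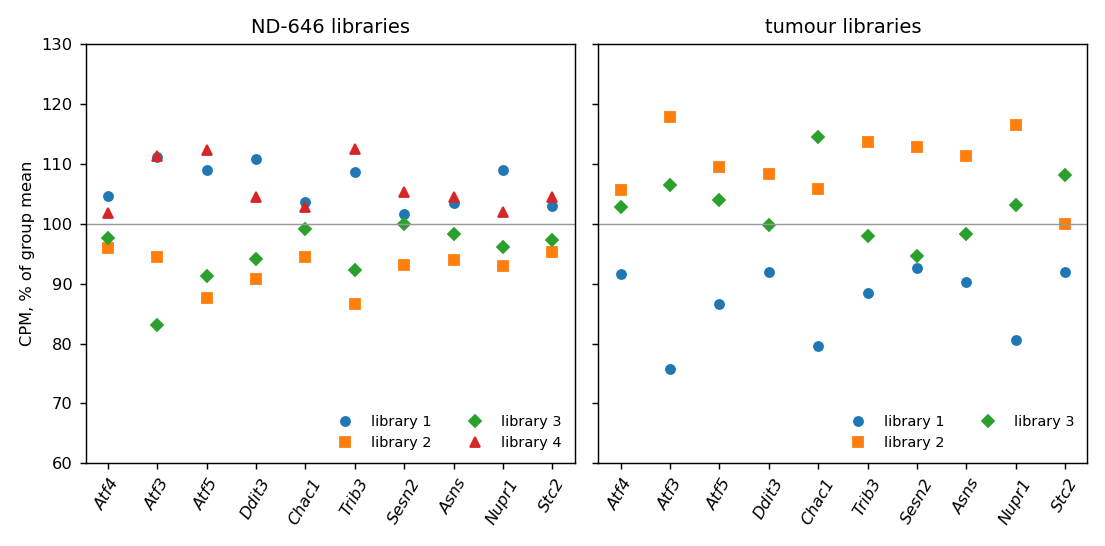
Level of each gene in each ND-646 library (left) and each tumour library (right) as a percent of its group's mean CPM. ND-646 libraries 1 and 4 lie above 2 and 3 in 10 of 10 genes, and tumour library 1 is the lowest in 10 of 10.

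Other values moved with the treatment. Of 9 tested myeloid markers 7 were called lower and 1 higher, of 8 B cell markers 6 and 1, of 7 NK and gamma delta T cell markers 5 and 1, and of 8 dendritic cell markers 3 and 2. Summed myeloid markers were at 325 to 341 CPM in vehicle and 88.2 to 98.5 CPM in ND-646 libraries, with 4 of 24 and 7 of 24 at 0 in all libraries of the group. Most of that sum came from Spp1, or osteopontin, at a mean of 229 and 54.1 CPM, and Ccr2, a chemokine receptor, at 66.5 and 12.3 CPM, both named after their values were seen and both also known in activated T cells. The share of mitochondrially encoded mRNA was 2.76% to 3.12% and 2.12% to 2.16%. Summed CD8 and T cell identity genes were at 7264 to 7481 and 6762 to 6855 CPM. Their part in the differences was not tested. Scaling to the identity genes raised the median of all genes by 0.11 and left all 10 called, where 42.4% of all genes were then called higher.

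Around the 10 genes, the wider pathway was read from lists drawn up from textbook knowledge. Some genes, such as Cebpb and Pmaip1, stand in more lists than one. These lists too were drawn up with earlier results known, and no list was tested, so each count is only set beside the share of all genes called higher, 29.8% under TMM and 42.4% after identity scaling. Of 22 genes for the eIF2 kinases, eIF2, eIF2B and the eIF2 phosphatases, 7 (31.8%) were called higher and 6 lower with ND-646 (11 and 2 after identity scaling), a share near that of all genes. Impact, an inhibitor of the amino acid sensing kinase GCN2, rose by 0.49 ± 0.04, and Ppp1r15b, the constitutive phosphatase subunit, fell by 0.31 ± 0.04. Ppp1r15a, the inducible phosphatase subunit GADD34 and a target of the pathway named here after its values were seen, went from 29.1 ± 2.20 to 55.6 ± 6.79 CPM (SD, n = 4 each; log2 difference 0.93 ± 0.09). The kinase genes, named for their role after their values were seen, differed by 0.15 (Eif2ak1, heme), -0.21 (Eif2ak2, double-stranded RNA), -0.21 (Eif2ak3, the ER kinase PERK) and 0.14 (Eif2ak4, GCN2), and those of Eif2ak2 and Eif2ak3 lost their call after identity scaling (adjusted p = 0.0613 and 0.166).

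Of 27 tested textbook targets of ATF4 in signalling, redox and autophagy, 19 (70.4%, beside 29.8% of all genes) were called higher and 5 lower, with the same counts after identity scaling and a median log2 difference of 0.38. Ero1l, an oxidase of protein folding, rose by 0.95 ± 0.04 and Vegfa, a vascular growth factor, by 0.55 ± 0.04. Of 22 tested targets that make or carry amino acids, 16 (72.7%) were called higher and 3 lower (18 and 0 after identity scaling; median 0.27). Aldh1l2, a mitochondrial folate enzyme, went from 3.48 ± 0.0899 to 24.3 ± 1.72 CPM (SD, n = 4 each), a log2 difference of 2.80 ± 0.08 that was above that of Stc2. Slc1a4, a carrier of serine and alanine, rose by 0.81 ± 0.04. The 21 genes of the tRNA synthetase list, which also holds the tRNA export gene Xpot, split. Of them 8 (38.1%) were higher and 5 lower (14 and 1 after identity scaling), among them Eprs at 0.58 ± 0.04 and Hars at -0.33 ± 0.04.

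Of 21 tested ATF, CREB and C/EBP relatives, 14 were called higher and 3 lower (16 and 1 after identity scaling). The smallest p-values were those of Nfe2l2, the antioxidant regulator NRF2, at 1.01 ± 0.05 and of Creb3l2, a membrane-bound factor of the secretory pathway, at 1.13 ± 0.07. Of 21 genes of the XBP1 and ATF6 branches, 10 were higher and 6 lower (13 and 3); Sel1l, which helps discard misfolded ER protein, rose by 0.94 ± 0.04 and Ern1, the sensor IRE1, by 0.70 ± 0.05. Of 12 mitochondrial chaperones and proteases, 6 were higher and 3 lower (9 and 2), with Lonp1 at 0.61 ± 0.04 and Dnaja3 at 0.64 ± 0.05. Among 15 targets of p53, which can also drive Sesn2, 4 were higher and 8 lower (5 and 5), with Gtse1 at -0.89 ± 0.05 and Mdm2 at -0.39 ± 0.04. Of 7 tested genes listed as close or more distant relatives of the 10, Atf6b among them, 2 were higher and 2 lower (3 and 1). Trib2 rose by 1.10 ± 0.09 and Sesn1 fell by 0.26 ± 0.06. Of 18 immediate early and heat shock genes, 6 were higher and 7 lower (7 and 6), with Ier3 at -0.76 ± 0.06 and Jun at -0.64 ± 0.05.

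The second comparison set CD8+ T cells of the tumour against those of the spleen. All 10 genes were higher in the tumour libraries. In this comparison 12602 of the 15042 genes tested were called in either direction. The size ran from 1.55-fold for Ddit3 to 684-fold for Atf3, with Nupr1 at 0 counts in all spleen libraries. In spleen, 4 of the 10, namely Atf3, Chac1, Asns and Nupr1, did not reach in every library the 0.496 CPM that the filter on low counts asked for; they were tested because of their tumour level, so they had to differ between the groups.

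Atf4 stood at 121, 131 and 129 CPM in spleen libraries 1 to 3 and at 360.5, 416 and 405 CPM in tumour libraries 1 to 3, a log2 difference of 1.63 ± 0.07. Atf5 was at 6.03, 4.59 and 3.84 CPM against 27.1, 34.2 and 32.6 CPM (2.69 ± 0.16). Ddit3 had the smallest difference of the 10, from 21.1, 19.4 and 21.2 CPM to 29.3, 34.5 and 31.8 CPM (0.63 ± 0.08). Atf3 was close to absent in spleen. It had 10, 2 and 6 counts there (0.482, 0.0999 and 0.299 CPM) and 3168, 4742 and 4600 counts in the tumour libraries (157, 243 and 219.9 CPM). Its log2 difference was 9.42 ± 0.33.

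Nupr1 had 0 counts in the 3 spleen libraries and 331, 461 and 438 counts, or 16.4, 23.7 and 20.9 CPM, in the tumour libraries. With a floor of 3 counts over the spleen group, it was at least 412-fold higher in tumour. Chac1 had 4, 0 and 0 counts in spleen and 82, 105 and 122 counts in tumour (4.05, 5.39 and 5.83 CPM), a log2 difference of 6.15 ± 0.56. All its spleen counts came from library 1, and without that library it was at least 68.0-fold higher. Asns went from 0.723, 0.300 and 0.349 CPM to 24.4, 30.1 and 26.6 CPM (5.86 ± 0.22), and here too spleen library 1 was the highest of its group.

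Stc2 was at 2.12, 2.25 and 1.60 CPM in spleen and at 13.8, 15.0 and 16.2 CPM in tumour (2.91 ± 0.16), and Sesn2 at 5.59, 4.69 and 5.44 CPM against 26.7, 32.5 and 27.2 CPM (2.46 ± 0.12). Trib3 was the weakest call. It was low in both groups, at 31, 43 and 34 counts (1.49, 2.15 and 1.70 CPM) in spleen and 55, 68 and 63 counts (2.72, 3.49 and 3.01 CPM) in tumour, and the lowest tumour library was 1.27 times the highest spleen library. Its log2 difference was 0.79 ± 0.22 (adjusted p = 0.00836), and it kept its call without any 1 library (0.70 to 0.96).

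Of the 10 genes, 10 were called higher, where 43.6% of the 15042 genes tested were called higher; after scaling by the CD8 and T cell identity genes the figures were 10 of 10 and 67.8%. As before, the choice of the genes used these values, and nothing is read from the counts. That scaling raised the median of all genes by 0.92 and the share of higher among called genes from 52.0% to 84.0%, so the size of every difference depends on it. The median of the 10 was 2.80 beside 0.03 over all genes under TMM, and 3.73 beside 0.94 under identity scaling. Identity scaling shifts nearly every gene by the same amount. Placing Nupr1 at its bound leaves both medians of the 10 as they are. Both include Atf3, Chac1, Asns and Nupr1, which were tested because of their tumour level, so nothing is read from these medians. After identity scaling Ddit3 was at 1.56, Atf4 at 2.56 and Trib3 at 1.71.

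Markers of other cells moved with this comparison too. All 25 tested fibroblast and fibrosarcoma markers were called higher in tumour, and 2 of the 26 listed were at 0 in every spleen library; Col1a1, a collagen chain, was at 0.798 to 1.30 CPM in spleen and 1128 to 1845 CPM in tumour. Of 17 tested myeloid markers 11 were called higher and none lower, with 5 of 24 at 0 in every spleen library. Their sum, 352 to 367 CPM in spleen and 711 to 804 CPM in tumour, was mostly Ly6c2, a surface protein that CD8+ memory cells also carry, in spleen (323 and 273 CPM) and differed mostly by Spp1 (0.226 and 385 CPM). Summed B cell markers were at 837 to 873 CPM in spleen, mostly Ighm at a mean of 704 CPM, and at 96.4 to 106 CPM in tumour. Of 8 tested, 7 were called lower and 1 higher. Of 9 tested NK and gamma delta T cell markers 7 were called higher and 2 lower, of 10 endothelial markers 8 and 1, and of 10 dendritic cell markers 5 and 1. The share of mitochondrially encoded mRNA was 2.34% to 2.58% in spleen and 1.76% to 1.87% in tumour. Of its 13 genes, 11 were called lower under TMM and 12 higher after identity scaling. Summed T cell identity genes were at 11735 to 11841 and 5378 to 7172 CPM. Tumour library 1 was the lowest of 3 in 10 of 10 genes, against 37.4% of all genes tested. It also had the lowest fibroblast sum, 12875 CPM against 18512 and 16504 CPM, and the highest T cell identity sum, 7172 CPM against 5378 and 6281 CPM. Its sum of immediate early and heat shock genes was the lowest as well, 14844 CPM against 18537 and 17821 CPM. Tumour library 2, with the highest sum of both these genes and the fibroblast markers, was the highest in 8 of 10 genes, all but Chac1 and Stc2, against 36.8% of all genes. What sets the tumour libraries apart was not tested, nor was the part of tumour cell RNA in these differences. In the cultures, a separate experiment, the fibroblast sum did not exceed 17.4 CPM. There Atf4 was at 424 to 597 CPM, Trib3 at 139 to 471 CPM and Atf3 at 20.4 to 30.7 CPM. In tumour, Trib3 was at 2.72 to 3.49 CPM and Atf3 at 157 to 243 CPM. Levels in the cultures do not tell what part of the tumour levels came from tumour cells.

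Immediate early and heat shock genes, which answer to dissociation of tissue, were also higher. Of 19 tested, 18 (94.7%, beside 43.6% of all genes) were called higher and none lower (19 after identity scaling). Their median log2 difference was 2.91. Their summed level was 3187 to 3905 CPM in spleen and 14844 to 18537 CPM in tumour. Nr4a1, a nuclear receptor induced by antigen, rose by 4.34 ± 0.10 and Jund by 1.82 ± 0.06. Atf3 is itself an immediate early gene. Whether enzymatic dissociation, named for tumours only, entered the level of Atf3 or the others cannot be told apart from the tissue in this design.

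**Figure D4:**
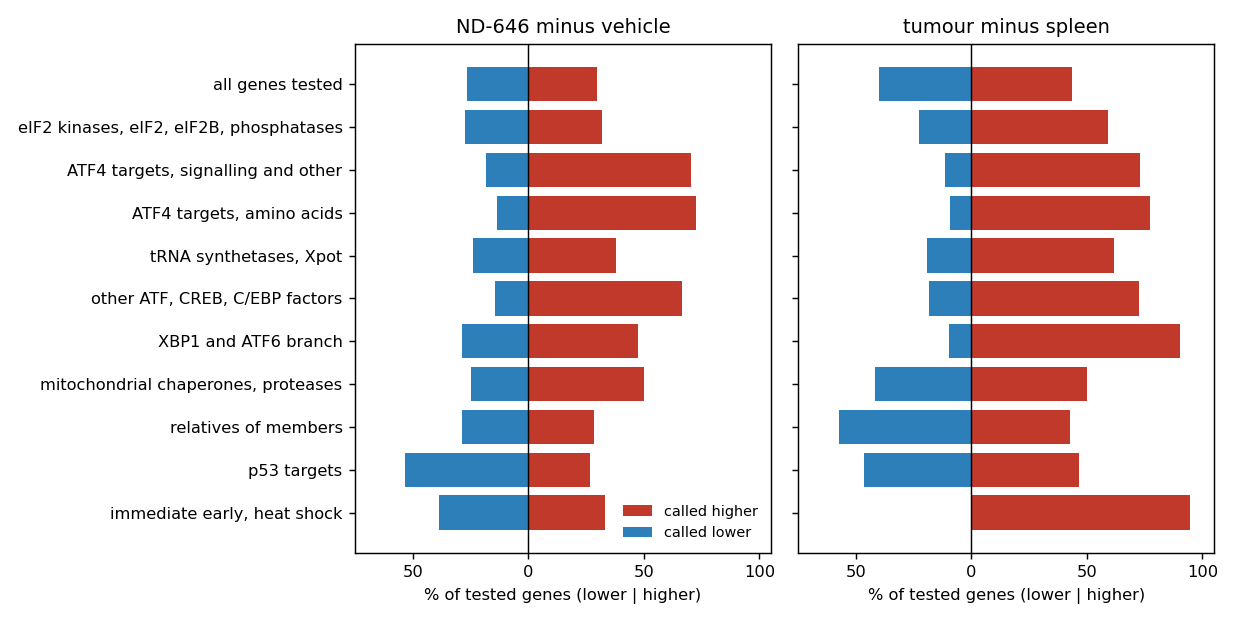
Share of the tested genes of each list called higher (right of 0) or lower (left of 0), in percent, with ND-646 and in tumour, with all genes tested on top. The amino acid targets of ATF4 were called higher in 16 of 22 with ND-646 and 17 of 22 in tumour, and the immediate early and heat shock genes in 6 of 18 and 18 of 19.

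Of the 22 genes that control eIF2, 13 (59.1%) were called higher and 5 lower in tumour (21 and 0 after identity scaling), where 43.6% of all genes were called higher and 67.8% after identity scaling. As with ND-646, the counts of the lists that follow are only set beside these shares. Eif2ak3, which encodes PERK, went from 33.3 ± 1.63 to 103 ± 11.0 CPM (SD, n = 3 each; log2 difference 1.63 ± 0.08), and Eif2s2, the beta subunit of eIF2, rose by 0.85 ± 0.05. Of the other kinase genes, named after their values were seen, Eif2ak4 rose by 0.62 ± 0.10 and Eif2ak2 by 0.30 ± 0.09, while Eif2ak1 was at -0.12 ± 0.06, not called (adjusted p = 0.0644), and at 0.79 after identity scaling. Ppp1r15a, chosen in the same way, rose by 1.73 ± 0.24, from 45.1 ± 16.2 to 149 ± 6.92 CPM (SD, n = 3 each).

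Of 26 tested signalling targets of ATF4, 19 (73.1%) were called higher and 3 lower (24, or 92.3%, and 2 after identity scaling; median 1.05). The smallest p-values, though not the largest differences, were those of Hmox1, which breaks down heme, at 6.13 ± 0.13 and of Cebpb, a partner of ATF4 on the composite element, at 3.76 ± 0.10. Of 22 tested amino acid targets, 17 (77.3%) were higher and 2 lower (22 and 0; median 1.24), with Got1, an aspartate aminotransferase, at 1.67 ± 0.06 and Slc1a4 at 4.79 ± 0.16. The tRNA synthetase list gave 13 higher and 4 lower of 21 (21 and 0; median 0.46), with Aars at 1.31 ± 0.06 and Kars at 0.98 ± 0.05. Vegfa and Slc1a4 were both low in spleen, at 0.445 and 1.64 CPM.

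The XBP1 and ATF6 branches gave 19 higher and 2 lower of 21 in tumour (21 and 0 after identity scaling; median 1.23). Xbp1, the factor spliced by IRE1, rose by 2.04 ± 0.05 and Atf6, the membrane-bound sensor, by 2.41 ± 0.06. Of 22 ATF, CREB and C/EBP relatives, 16 were higher and 4 lower (20 and 0), with Crem, a cyclic AMP responsive factor, at 5.35 ± 0.11. Mitochondrial chaperones and proteases split under TMM, 6 higher and 5 lower of 12, but were 12 and 0 after identity scaling; Hspd1 was at 1.52 ± 0.07 and Hspa9 at 0.72 ± 0.06. The p53 targets were 7 higher and 7 lower of 15 (11 and 3), with Gtse1 at 3.05 ± 0.09 and Pmaip1 at 3.01 ± 0.10. Among the 7 listed relatives, 3 were higher and 4 lower (4 and 2). Trib1 rose by 6.36 ± 0.22, with the same sign as Trib3, whereas Sesn1 fell by 1.86 ± 0.08, opposite in sign to Sesn2. Trib2, named after its values were seen, was at a mean of 118 CPM in spleen and 36.0 CPM in tumour.

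The 2 comparisons ranked the 10 genes differently, and the difference between them was not tested because they are separate tables from different cells. Stc2 and Nupr1 had the largest differences with ND-646, and Atf3 and Nupr1 in the tumour. Atf3 and Chac1, whose groups overlapped with ND-646, were at or below 0.482 CPM in spleen and reached 157 to 243 and 4.05 to 5.83 CPM in tumour. Trib3 and Ddit3, at 2.85-fold and 2.73-fold with ND-646, had the smallest differences in tumour, at 1.73-fold and 1.55-fold.

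Levels between genes were compared per kilobase of the longest coding transcript (GENCODE M21), since the lengths that the authors' counting used are not given. Atf4 was the highest of the 10 in all groups, at 261 CPM per kb in vehicle, 331 with ND-646, 73.7 in spleen and 228 in tumour libraries. In vehicle it was followed by Asns (75.9), Trib3 (72.7) and Ddit3 (69.0), which lay close together. With ND-646 the order below Atf4 was Trib3 (207), Ddit3 (189), Atf5 (131) and Asns (121), in spleen Ddit3 (23.1) and Atf5 (2.65), and in tumour Atf3 (104), Ddit3 (35.8) and Nupr1 (24.5). Stc2 was the lowest in vehicle (6.00), Atf3 with ND-646 (13.9, with Chac1 next at 16.6) and Trib3 in tumour (1.52). Trib3 thus stood next to Atf4 with ND-646 and last of the 10 in tumour.

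Across all 14 libraries, the genes whose log2(CPM + 1) was most like that of Atf4, out of 10346 ranked, were Fkbp1a (Pearson r = 0.997), Atf1 (0.995) and Gpx4 (0.995). For Ddit3 they were Acbd6 (0.995), Phkb (0.992) and Riok3 (0.992). The other members correlated with Atf4 at 0.77 (Atf3) to 0.99 (Nupr1) and with Ddit3 at 0.32 (Atf3) to 0.97 (Stc2). These coefficients rest on 4 groups whose tables were normalized separately, so they mostly carry the order of the group means.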

How the data were processed

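For each experiment the authors deposited a table of estimated counts by gene symbol, from poly(A)-selected, strand-specific libraries read in pairs, per the labels' protocols. STAR, Salmon and DESeq2 are named in the submitters' processing notes. Versions, settings, genome build and annotation are not given in the sources consulted. The only coordinates printed are those of RefSeq promoters. The columns were not normalized to a common total, and 9.16% and 9.15% of values were not whole numbers (tolerance 1e-06).

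Counts were rounded, and each table was fitted alone with the robust quasi-likelihood test of edgeR 4.0.16 under R 4.3.3. Libraries were scaled by TMM, low genes left out by filterByExpr, and p-values adjusted by Benjamini-Hochberg over all 14251 or 15042 genes tested, with a threshold of 0.05. Standard errors come from the F statistic. CPM is the count per 1000000 of the TMM-scaled library. A single count was worth 0.0293 to 0.0430 CPM in the cultures and 0.0478 to 0.0513 CPM in the sorted cells. Folds against a group at 0 use a floor of 3 counts over the group, which covers counting error only. Groups were taken from the sample titles. The fit was also run on simulated data with independent libraries and few changed genes. That setting is simpler than these libraries, so nothing here rests on it.

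The 10 genes, the gene lists and the naming rule were chosen with earlier results of these data known. From each list, the 2 called genes with the smallest p in each comparison are named, and for likeness the 3 highest correlations. Alternatives were the size factors of DESeq2 1.42.0, the Wald test of the same package, limma-voom (limma 3.58.1), other filters, the replicate number as a block, scaling by 17 T cell identity genes and leaving out each library. Leaving out ND-646 libraries 1 and 4, or 2 and 3, was added after seeing the data. Figures were drawn with matplotlib 3.10.9.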

Additional observations from a re-analysis of the deposited data

How the results depend on the processing

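All 20 log2 differences kept their direction under every alternative run, and 290 of 300 recomputed values kept their side of the threshold; the other 10 were the lost calls of Atf3 and Chac1 with ND-646. The number of the 10 genes called higher ranged from 8 to 10 with ND-646 when 1 library was left out, and was 10 in every alternative in tumour. Over all genes, the number called with ND-646 was 8028, and 7424 to 7932 without 1 library. The fitted value of Chac1 in tumour moved from 6.15 to between 5.63 and 9.69 without 1 library, the highest without spleen library 1; the fitted value for Nupr1, at 0 counts in spleen, depends on the prior count and is not given. Of 1200 recounts of the lists, 86 differed from the main count by over 1.5 times, or differed from it where either count was 0.

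Libraries of different groups share replicate numbers in their titles. Their deviations from the group means correlated at -0.150 to 0.0621 in the cultures and at -0.0216 to -0.0126 in the sorted cells, so the numbers were not taken as pairs. With the replicate block, 7864 genes were called with ND-646 and 12492 in tumour (12602 without it), and all 10 genes were called higher in both.

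Depth limits the spleen values of Chac1, Atf3 and Asns, which rest on 4, 18 and 28 counts in all.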
